A study of Mus musculus with 8 samples.

Results

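The mouse retina was examined after 3 days of hyperoxia. Total RNA of adult C57BL/6J retinas was measured on Affymetrix whole mouse genome arrays, and the 2 arrays titled 3 days were set against the 2 titled Control, 4 of the 8 arrays of the series. The control mice stayed in normal oxygen (0 days), and the day 3 mice were kept for 3 days in a chamber with 75% oxygen. Both groups were labelled as aged 80 to 120 days, were reared in dim cyclic light, and the labels name no transgene or other agent for either. The methods describe pooled retinas of males and females at each time without stating if each array had a pool of its own. The spread between 2 arrays may therefore be technical, and p-values measure only that spread. The comparison addresses the question of which genes differ early in an exposure that the study followed to 14 days.

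The retina draws most of its oxygen from the choroid, a vascular bed that does not adjust its flow to oxygen, so breathed oxygen reaches the photoreceptors with little buffering. Cells read oxygen through prolyl hydroxylases, which in the presence of oxygen mark the HIF transcription factors for degradation, and the genes that HIF drives, among them those of glycolysis, are then less expressed. Photoreceptors are also known for an unusually high rate of glycolysis. Retinal stress activates Müller cells, the radial glia of the retina, which then make GFAP, and microglia, its resident macrophages.

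The deposited values are RMA values on the log2 scale, centred on each probe set's median over the 8 arrays, so a value says how far an array lies from the middle of the series and gives no level. A probe set is a group of short probes for 1 transcript, mostly near its 3' end. Every probe set was described by the order of its 4 arrays. It lay above control where both day 3 arrays exceeded both control arrays, and below control where both were under them, and the gap is the log2 distance between the nearest day 3 and control arrays. Where a gene is named without a probe set, its value is the mean of the probe sets that name it alone. Differences are day 3 mean minus control mean (n = 2 arrays each), with the standard error (SE) of a limma fit to all 8 arrays.

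The day 3 arrays were unlike each other. The SD of the difference between them over probe sets was 0.56, against 0.32 between the control arrays. The difference between 3' and 5' probe sets, which widens when RNA is degraded or labelled short, was 1.19 for *Gapdh* and 0.99 for the added poly-A controls on the array labelled day 3 replicate 2. On the other 3 arrays it lay between -0.29 and 0.06 for *Gapdh* and between -1.39 and -0.33 for the poly-A controls. The array labelled day 3 replicate 1 had instead the highest level of the poly-A controls, 2.38 against -0.52 to 0.74 on the other 3. Over all probe sets the array labelled day 3 replicate 2 correlated at -0.13 with replicate 1 and at 0.74 with the array labelled day 14 replicate 2, a correlation across probe sets of centred values. Such correlations were low within the other times too, at 0.04 for control, 0.02 for day 7 and 0.18 for day 14. The array labelled day 14 replicate 2 had high differences too, 1.43 for *Gapdh* and 1.31 for the poly-A controls. On the array labelled day 14 replicate 1 they were 0.05 and -0.38. The quality measurements in the paper give the raised *Gapdh* ratio to both arrays of the longest exposure and to none of the shortest. The paper heads it as a 5' to 3' ratio. It is read here as 3' to 5', a reading that could not be checked. In its own processing the paper also describes close clustering of the replicates at every time but day 7. Whether the array labelled day 3 replicate 2 holds the RNA its label names could not be settled, and a swapped label would change what its values stand for. The labels of the other arrays were kept as given and were not settled either. Both arrays of day 3 are therefore given one by one throughout. Where leaving out 1 of the 4 arrays moved a list's median of 0.2 or more by over 1.5 times, the median without it is given too.

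Of 45037 probe sets, 11128 (24.7%) lay above both control arrays on both day 3 arrays and 8013 (17.8%) lay below. Taken as genes, 5129 of 18193 (28.2%) lay above and 2938 (16.1%) below, and these shares are the background for each gene group. The median difference over all genes was 0.06. Gaps of 1 or more, a factor of 2 between the nearest arrays, were held by 8 probe sets above (0.0178%) and 66 below (0.147%). The means differed by 1 or more in 193 probe sets higher at day 3 (0.429%) and in 495 lower (1.1%). In the limma fit no probe set passed an adjusted p of 0.05 (0 of 45037, or 0%, lowest adjusted p = 0.471), and 4649 (10.3%) were under an unadjusted p of 0.05, 2175 of them higher at day 3 and 2474 lower. By gene, 0 of 18193 (0%) passed the adjusted threshold in limma (lowest adjusted p = 0.427), with 1161 (6.38%) higher and 839 (4.61%) lower at an unadjusted p under 0.05. The last shares, 6.38% higher and 4.61% lower, are the background for the counts by unadjusted limma p in each gene group. Since no gene or probe set passed the adjusted threshold, positions on the arrays are described and no gene is said to have changed.

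Just inside a gap of 1 lay a probe set of *Cd53* above and one of *Meg3* below (gap -1.003), and just outside it lay one of *Spata24* above (0.99) and one of *Ogt* below (-0.99). The probe sets with gaps of 0.5 or more differed in kind between the directions. Those below (870) named no known gene in 27.8% of cases against 20.3% of all probe sets and 7.31% of the 260 above. The genes they named spanned a median of 53.01 kb of the genome (GRCm38.p6), against 20.2 kb for all genes measured and 10.9 kb for those above. On the other 4 arrays of the series, the medians of the 870 were 0.49 and 0.23 at day 7 and -0.18 and -0.57 at day 14. The 260 had medians of -0.21 and -0.37 at day 7 and 0.06 and 0.54 at day 14. In both sets the day 7 arrays lay on the control side, and the array labelled day 14 replicate 2 lay on the day 3 side. Each probe set is centred over all 8 arrays, so choosing control and day 3 arrays far apart limits where the other 4 can lie. Their sides are therefore no independent result.

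Of the 15 genes that lay farthest above control at day 3, 3 are on the microglia list (*Tyrobp*, *Ly86* and *Cd53*), 3 on the gliosis list (*Gfap*, *Cebpd* and *Cp*) and 2 on the iron list (*Cp* and *Hamp*). In bulk tissue, a change in the number of cells of a type and a change of RNA in each cell cannot be told apart, here and below. *Tyrobp*, the signalling adaptor of myeloid receptors, stood at -0.22 and -0.24 on the control arrays and 0.92 and 1.93 on the day 3 arrays. *Ly86*, a leukocyte partner of a Toll-like receptor relative, stood at -0.07 and -1.01 in control and 0.94 and 2.03 at day 3. *Cd53*, a leukocyte tetraspanin, stood at -0.12 and -0.34 in control and 0.88 and 1.39 at day 3. In all of these the array labelled day 3 replicate 2 was the highest of the 4. *S100a4*, a calcium-binding protein, had values of -0.55 and -0.50 in control and 0.68 and 0.84 at day 3. For *Hamp*, which encodes the iron hormone hepcidin, they were -0.35 and -0.46 in control and 1.06 and 0.73 at day 3. *Cp* encodes ceruloplasmin, a copper protein that oxidises iron, and its probe set read -0.89 and -0.55 in control and 0.47 and 0.52 at day 3. For these 3 genes both day 3 arrays lay close together. The differences were 1.66 ± 0.65 (SE) for *Tyrobp*, 1.28 ± 0.33 for *S100a4*, 1.30 ± 0.27 for *Hamp* and 1.22 ± 0.21 for *Cp*.

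The rest of the 15 genes farthest above were *Med9os*, *Cfap126*, *Spata24*, *Cebpd*, *Cd52*, *Clec7a*, *Prdx4*, *Nenf* and *Gfap*. *Med9os*, a transcript named for the strand opposite *Med9*, had the largest gap of all (1.26), with -0.05 and -1.34 in control and 1.68 and 1.21 at day 3. *Cebpd*, a transcription factor of the acute phase, stood at -0.47 and -1.28 in control and 0.47 and 2.32 at day 3. *Clec7a*, which encodes the microglial receptor dectin-1, stood at -0.51 and -0.67 in control and 0.39 and 1.90 at day 3. *Cd52*, a leukocyte surface protein, had -0.13 and -0.48 in control and 0.77 and 1.92 at day 3. In *Cebpd*, *Clec7a* and *Cd52* the array labelled day 3 replicate 1 lay much nearer to control than replicate 2 did. *Prdx4*, a peroxidase of the endoplasmic reticulum, had -0.03 and -1.07 in control and 0.87 and 1.14 at day 3. *Nenf*, a secreted neurotrophic protein, had -0.10 and -0.22 in control and 1.005 and 0.80 at day 3. *Cfap126*, a ciliary gene, had -0.51 and -0.39 in control and 1.03 and 0.68 at day 3. *Spata24* had -0.38 and -0.51 in control and 0.61 and 0.74 at day 3.

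**Figure D1:**
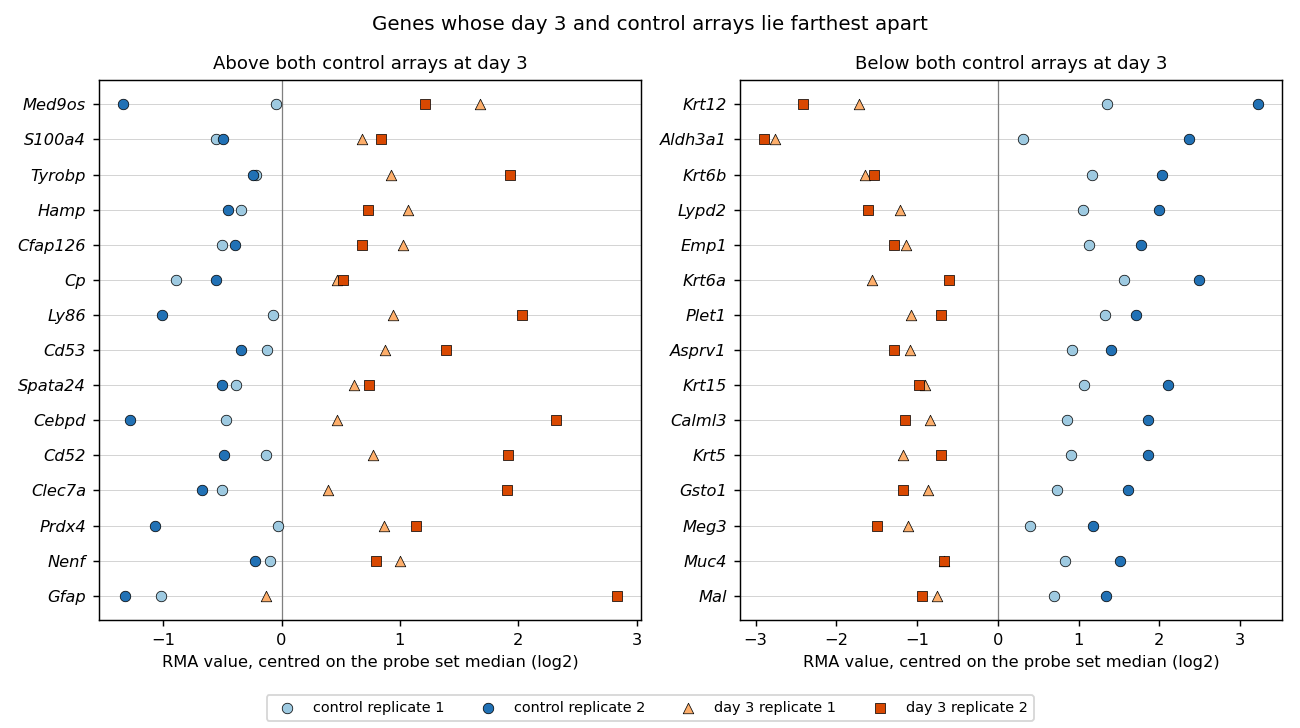
Centred log2 RMA values of the 15 genes with the largest gap above (left) and below (right) both control arrays, 1 probe set a gene and 1 symbol an array (circles, control; triangle and square, day 3 replicates 1 and 2). The gap is widest for *Krt12* on the right, at -3.08, and for *Med9os* on the left, at 1.26, and *Gfap* and *Cebpd* have the widest spread between the day 3 arrays on the left.

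Most of the genes farthest below control are known from the front of the eye. Of the 15, 10 are on the list of cornea and conjunctiva epithelium, its surface layers. *Krt12*, the keratin of the corneal epithelium, stood at 1.36 and 3.22 in control and -1.72 and -2.41 at day 3. *Aldh3a1*, an aldehyde dehydrogenase that makes up much of the soluble protein of the mouse cornea, stood at 0.31 and 2.36 in control and -2.76 and -2.89 at day 3. The differences were -4.35 ± 1.06 (SE) for *Krt12* and -4.16 ± 0.87 for *Aldh3a1*. *Krt5*, a keratin of basal epithelial cells, stood at 0.91 and 1.87 in control and -1.17 and -0.71 at day 3. *Krt15*, another such keratin, stood at 1.06 and 2.11 in control and -0.91 and -0.98 at day 3. The control arrays differed from each other in these genes as well, with replicate 2 the higher of the 2 in each. The others on the list were *Krt6a* and *Krt6b*, near copies whose probes may share signal, *Lypd2*, *Emp1*, *Calml3* and *Gsto1*. *Plet1*, *Asprv1*, *Muc4* and *Mal*, which are not on it, had gaps from -2.03 for *Plet1* to -1.44 for *Mal*.

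Over the whole cornea list, 22 of 35 measured genes lay below both control arrays and 6 above, with a median difference of -0.57 (from -0.65 to -0.40 with 1 array left out). The list's median was 0.18 and 0.59 on the control arrays and -0.23 and -0.22 on the day 3 arrays. Single genes ranged from -0.33 to 2.81 in control and from -2.89 to 0.34 at day 3. The 6 above, *Grhl3*, *Sprr1a*, *Trp63*, *Pax9*, *Epcam* and *Ly6d*, all had gaps under 0.3. Of the 66 probe sets with a gap of 1 or more below, 14 belong to this list and 52 were left without the cornea and lens lists. The 52 still include *Plet1*, *Asprv1*, *Muc4* and *Mal*, so the lists may not cover all surface epithelium genes. The lens list, mostly crystallins, had medians of -1.54 and 1.26 on the control arrays and -1.36 and -0.57 at day 3. The control arrays differed in lens genes by more than the day 3 arrays did, and 0 of 19 lay below control and 2 above. Its median difference was -0.65, but -1.69 without control replicate 1, 0.23 without control replicate 2 and -1.16 without day 3 replicate 2. Whether front-of-eye tissue on the control arrays had a part in the results below was not tested.

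Among noncoding RNAs, *Meg3* lay farthest below control. *Meg3*, an imprinted transcript that stays in the nucleus, is measured by 11 probe sets, and all 11 lay below both control arrays, with differences from -2.09 to -0.80. Its widest probe set stood at 0.40 and 1.18 in control and -1.11 and -1.50 at day 3. Among the 18 nuclear noncoding RNAs measured, 7 lay below and 4 above. *Snhg11* stood at 0.21 and 1.12 in control and -0.76 and -0.77 at day 3. *Malat1*, an abundant RNA of nuclear speckles, stood at 0.50 and 0.66 in control and -0.52 and -0.17 at day 3. On the other side were *Snhg6*, at -0.10 and -0.46 in control and 1.11 and 0.42 at day 3, and 3 other hosts of small nucleolar RNAs. Of these, *Snhg8* stood at -0.15 and -0.46 in control and 1.09 and 0.31 at day 3. The median difference of the list was -0.08, and it was 0.07 when day 3 replicate 2 was left out and -0.28 when replicate 1 was.

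Of the 856 genes with 5 or more probe sets, 8 had all of them below control and 4 had all above. Below were *Meg3*, *Zbtb20*, *Mef2c*, *Tut4*, *Wdr26*, *Srek1*, *Crebzf* and *Ptpdc1*, and above were *Ndufa7*, *Bola2*, *Igbp1* and *Rcbtb2*. *Zbtb20*, a zinc finger repressor, had 9 probe sets with differences from -1.43 to -0.81. *Mef2c*, a transcription factor of neurons and muscle, had 5 from -0.95 to -0.67. These genes were singled out after their values were seen.

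More genes of gliosis lay above control than below it, but mainly on the array labelled day 3 replicate 2, whose label is in doubt. Of 32 measured, 17 lay above both control arrays and 2 below, with a median difference of 0.47. The median of the list was -0.15 and -0.16 in control and -0.07 and 0.61 on the day 3 arrays, in the order of their numbers. Without replicate 2 the median difference was 0.09, and without replicate 1 it was 0.85, so it rests on the array in doubt. In the limma fit by gene, 5 of the 32 were higher and 0 lower at an unadjusted p under 0.05, against 6.38% and 4.61% of all genes. *Gfap*, the intermediate filament of reactive glia, is measured by 3 probe sets, all above, and its mean stood at -0.83 and -1.09 in control and -0.04 and 2.56 at day 3. *Cebpd* by its mean stood at -0.39 and -0.82 in control and 0.28 and 1.35 at day 3. *Nupr1*, a stress-induced nuclear protein, stood at -1.17 and -0.07 in control and 0.35 and 1.02 at day 3. *Tspo*, an outer mitochondrial membrane protein of reactive glia, stood at -0.35 and -0.23 in control and 0.17 and 0.56 at day 3. *Lcn2*, which encodes the iron-scavenging protein lipocalin 2, stood at -0.49 and -0.82 in control and -0.26 and 2.07 at day 3. *Bcl3*, a coactivator of NF-κB, stood at -0.47 and -0.17 in control and 0.09 and 2.65 at day 3. On the array labelled day 3 replicate 1 these last 2 genes exceeded control only slightly. The difference of *Gfap* by its mean was 2.22 ± 0.88 (SE). Below control were 2 members. *Il6st*, the shared receptor chain of the interleukin 6 family, stood at 0.00 and 0.23 in control and -0.16 and -0.23 at day 3. *Nfkbiz*, a nuclear NF-κB inhibitor, stood at 0.06 and 0.23 in control and -0.27 and -0.09 at day 3.

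Promoters of the gliosis genes above control were searched for the sites of the transcription factors that act in gliosis, STAT (TTCCNGGAA) and C/EBP (TTGCNNAA), on both strands in the window from 250 bases before to 50 after the start (RefSeq, GRCm38.p6). Of the 15 such genes with a promoter entry, 1 held the STAT letters and 2 those of C/EBP, against 1.35% and 12.2% of all 27025 genes with an entry. Of the 12 other gliosis genes with an entry, 1 held the STAT letters and 1 those of C/EBP. The 3 promoters are shown with the matching letters in capitals, *Gfap* with a STAT match and *Cp* and *Lcn2* with C/EBP matches (in *Cp* on the other strand).
Gfap, chr11:102897151-102897450, minus strand: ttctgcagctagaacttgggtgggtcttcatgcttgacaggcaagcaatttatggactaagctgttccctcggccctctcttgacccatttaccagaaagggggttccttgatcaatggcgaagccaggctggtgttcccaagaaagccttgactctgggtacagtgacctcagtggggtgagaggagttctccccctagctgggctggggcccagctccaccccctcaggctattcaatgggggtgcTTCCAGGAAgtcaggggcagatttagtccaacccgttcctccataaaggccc
Cp, chr3:19956999-19957298, plus strand: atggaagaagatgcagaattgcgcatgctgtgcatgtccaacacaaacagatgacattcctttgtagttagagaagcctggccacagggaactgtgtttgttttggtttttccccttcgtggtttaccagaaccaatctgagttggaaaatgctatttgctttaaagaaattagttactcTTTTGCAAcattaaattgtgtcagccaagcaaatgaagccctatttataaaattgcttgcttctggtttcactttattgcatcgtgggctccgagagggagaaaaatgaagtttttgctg
Lcn2, chr2:32387690-32387989, minus strand: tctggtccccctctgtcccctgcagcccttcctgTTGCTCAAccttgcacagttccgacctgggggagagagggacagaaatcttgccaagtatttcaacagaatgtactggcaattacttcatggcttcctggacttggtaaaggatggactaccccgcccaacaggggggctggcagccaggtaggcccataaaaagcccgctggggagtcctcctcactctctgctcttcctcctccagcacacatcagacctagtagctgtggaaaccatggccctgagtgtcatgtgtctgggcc
A match is a run of letters and not a shown binding site.

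Genes of microglia and macrophages lay more often above control than below it. Of 32 measured, 17 lay above and 2 below, with a median difference of 0.56. The list stood at -0.11 and -0.15 in control and at 0.01 and 0.70 at day 3. Without replicate 2 the median difference was 0.19, and without replicate 1 it was 0.82. At an unadjusted p under 0.05, 9 were higher and 0 lower. Among the receptors and adaptors, *Fcer1g*, the shared chain of Fc receptors, stood at -0.25 and -0.55 in control and 0.23 and 1.74 at day 3. *Trem2*, the lipid receptor that signals through Tyrobp, stood at -0.14 and -0.07 in control and 0.31 and 0.63 at day 3. *Gpr34*, a lysophospholipid receptor, stood at 0.03 and -0.37 in control and 0.94 and 0.48 at day 3. The genes of C1q, which starts the classical complement pathway, lay above control for all 3 chains, with *C1qa* at -0.01 and -0.40 in control and 0.36 and 1.05 at day 3. *C1qb* stood at -0.12 and -0.29 in control and 0.30 and 1.79 at day 3. *C1qc* stood at -0.22 and -0.33 in control and 0.17 and 1.94 at day 3. Markers of resting microglia were also measured. *Cx3cr1*, the fractalkine receptor, stood at -0.11 and -0.17 in control and -0.04 and 0.18 at day 3. *Tmem119* stood at -0.27 and -0.01 in control and 0.11 and 0.72 at day 3. *P2ry12*, *Csf1r*, *Ptprc* and *Itgam* had day 3 and control arrays that overlapped. Below control were 2 members. *Lyz1*, a lysozyme gene, stood at -0.12 and 0.53 in control and -0.21 and -0.14 at day 3. *Cd74*, the invariant chain of class II antigen presentation, stood at 0.03 and 0.21 in control and -0.21 and -0.03 at day 3.

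Interferon response genes lay above control or overlapped with it. Of 30 measured, 17 lay above, and the median difference was 0.43, or 0.20 without replicate 2 and 0.75 without replicate 1. The list's median was -0.14 and -0.10 in control and 0.01 and 0.64 at day 3. *Ifit3* and *Ifit1* encode antiviral RNA-binding proteins. *Ifit3* stood at -0.28 and -0.13 in control and 0.60 and 0.66 at day 3. *Ifit1* stood at -0.14 and -0.23 in control and 0.51 and 1.74 at day 3. *Ifi27l2a*, an interferon-induced membrane protein, stood at -0.04 and -0.10 in control and 0.55 and 1.52 at day 3. *Psmb10*, a subunit of the immunoproteasome, stood at -0.19 and -0.12 in control and 0.39 and 1.11 at day 3. *Gbp2*, a guanylate-binding protein, stood at -0.12 and -0.08 in control and 0.36 and 1.25 at day 3. In *Ifit3* the 2 day 3 arrays agreed closely, while in the other 4 replicate 2 lay well above replicate 1. The difference of *Ifit3* was 0.84 ± 0.28 (SE). In the same limma fit, 4 of the 30 were higher and 0 lower at an unadjusted p under 0.05, against 6.38% and 4.61% of all genes.

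Of the chemokines and Toll-like receptor genes, 12 of 35 lay above and 2 below (median difference 0.09, from 0.03 to 0.22 with 1 array left out). *Ccl12*, a monocyte chemokine, stood at -0.02 and -0.54 in control and 0.44 and 1.29 at day 3. *Icam1*, a leukocyte adhesion molecule, stood at -0.20 and -0.12 in control and 0.17 and 0.20 at day 3. In complement and coagulation 11 of 29 lay above and 1 below, the 3 C1q genes among them. *Cfb*, a factor of the alternative pathway, stood at -0.25 and -0.13 in control and 0.18 and -0.01 at day 3. *Proc*, which encodes the anticoagulant protein C, stood at -0.24 and -0.06 in control and 0.40 and 0.27 at day 3. The 1 below was *Thbd*, thrombomodulin, at -0.16 and 0.45 in control and -0.31 and -0.18 at day 3.

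**Figure D2:**
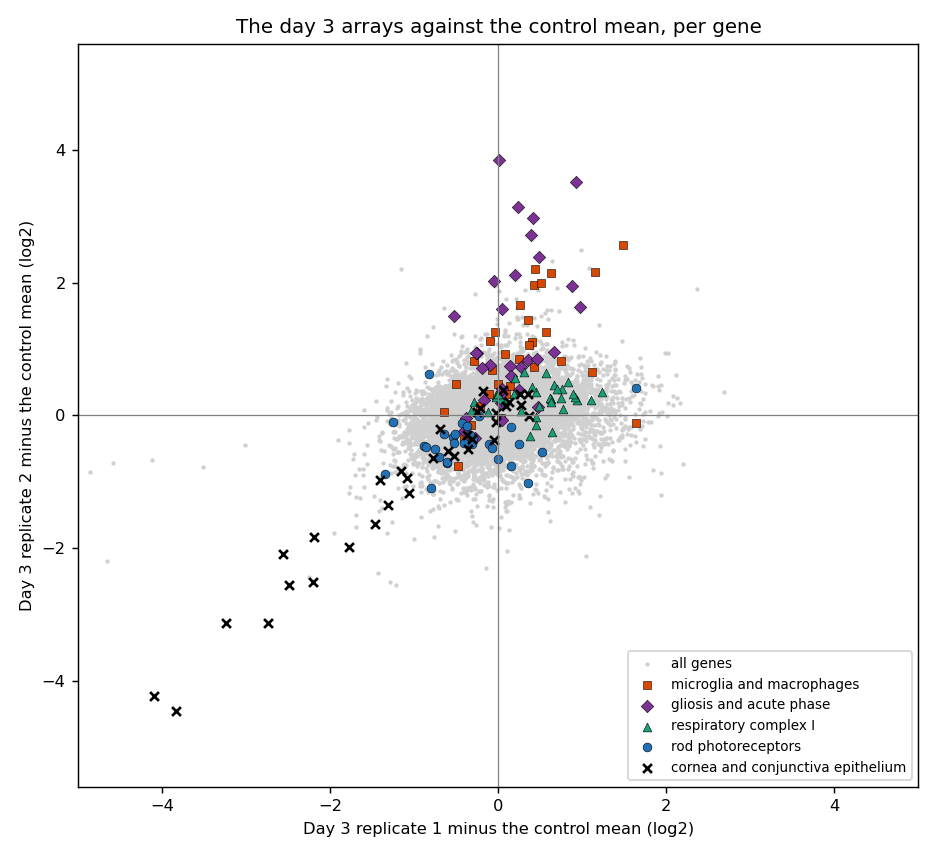
Each gene's value on day 3 replicate 1 (horizontal) and day 3 replicate 2 (vertical) minus the mean of the control arrays (log2), with 5 gene lists marked. Gliosis and microglia genes spread along the vertical axis (list medians 0.85 and 0.82 there), cornea genes run to the lower left on both arrays, complex I genes lie to the upper right and most rod genes lie to the lower left.

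Most genes of rod photoreceptors lay below control on both arrays labelled day 3, though the label of replicate 2 is in doubt. Of 31 measured, 22 lay below and 1 above, with a median difference of -0.38. The median of the list was 0.06 and 0.08 in control and -0.36 and -0.36 at day 3. The median difference was -0.43 without day 3 replicate 1 and -0.41 without replicate 2, the array in doubt. On the arrays labelled day 14 replicates 1 and 2 the median of the list was 0.02 and -0.38. By the unadjusted p in limma, under 0.05, 14 of the 31 were lower and 1 higher, against 4.61% and 6.38% of all genes.

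Among the parts of the rod, *Impg1*, a proteoglycan of the matrix around the outer segments, stood at 0.43 and 0.38 in control and -0.39 and -0.69 at day 3. *Rgs9bp*, the anchor of the complex that shuts off transducin, stood at 0.26 and 0.58 in control and -0.94 and -0.46 at day 3. *Tulp1*, needed for transport of protein to the outer segment, stood at 0.12 and 0.14 in control and -0.48 and -0.57 at day 3. The day 3 arrays of these 3 genes lay clear of control by gaps from -0.78 to -0.60. The differences were -0.95 ± 0.31 (SE) for *Impg1*, -1.12 ± 0.27 for *Rgs9bp* and -0.66 ± 0.22 for *Tulp1*. *Rom1*, a disc rim protein, stood at 0.06 and 0.12 in control and -0.66 and -0.41 at day 3. *Aipl1*, the chaperone of phosphodiesterase, stood at -0.01 and 0.36 in control and -0.44 and -0.54 at day 3. The cascade that turns light into a signal was represented on the same side by *Gnat1* (transducin), at -0.02 and 0.04 in control and -0.42 and -0.10 at day 3, and by *Pde6a*, *Pde6b* and *Pde6g* (phosphodiesterase) and *Cngb1* (the cation channel). *Nrl*, the transcription factor that makes a photoreceptor a rod, stood at 0.02 and 0.08 in control and -0.59 and -0.23 at day 3. *Crx*, the factor of all photoreceptors, stood at -0.01 and 0.53 in control and -0.45 and -0.37 at day 3. The 1 member above was *Prph2*, the partner of Rom1 at the disc rim, at -0.49 and -0.66 in control and 1.07 and -0.16 at day 3. Its 2 day 3 arrays lay 1 or more apart.

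Crx binds TAATCC, and these letters were sought on both strands of the same promoter windows. Of the 15 rod genes below control that have an entry, 7 (*Cngb1*, *Sag*, *Gucy2e*, *Crx*, *Abca4*, *Aipl1* and *Unc119*) held them, or 46.7%, against 8.14% of all genes with an entry. Of the 8 other rod genes with an entry, 4 held them. The promoters of *Aipl1*, *Crx* and *Cngb1*, the 3 with the widest gaps among the 7, are shown with the matches in capitals (GGATTA is the same site on the other strand).
Aipl1, chr11:72037460-72037759, minus strand: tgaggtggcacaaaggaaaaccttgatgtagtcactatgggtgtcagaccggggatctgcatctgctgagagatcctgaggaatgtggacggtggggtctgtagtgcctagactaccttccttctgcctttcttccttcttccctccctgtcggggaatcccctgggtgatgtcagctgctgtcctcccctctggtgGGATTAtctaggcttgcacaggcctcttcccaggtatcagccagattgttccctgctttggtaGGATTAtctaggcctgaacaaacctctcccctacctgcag
Crx, chr7:15879906-15880205, minus strand: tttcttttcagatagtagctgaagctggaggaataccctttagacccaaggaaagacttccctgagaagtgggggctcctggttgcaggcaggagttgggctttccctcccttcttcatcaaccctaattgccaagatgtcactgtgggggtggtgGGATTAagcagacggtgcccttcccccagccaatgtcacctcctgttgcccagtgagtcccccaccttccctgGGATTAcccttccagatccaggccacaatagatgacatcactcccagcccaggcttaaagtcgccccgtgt
Cngb1, chr8:95306536-95306835, minus strand: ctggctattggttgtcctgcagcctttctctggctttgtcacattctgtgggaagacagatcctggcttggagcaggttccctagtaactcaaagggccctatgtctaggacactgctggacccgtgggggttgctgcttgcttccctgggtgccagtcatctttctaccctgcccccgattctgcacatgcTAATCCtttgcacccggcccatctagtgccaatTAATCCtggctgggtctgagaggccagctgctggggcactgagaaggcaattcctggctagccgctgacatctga

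Few cone genes were separated. Of 13 measured, 2 lay below and 1 above, with a median difference of -0.08 that had no settled sign, from -0.20 to 0.09 with 1 array left out. *Opn1sw*, the short-wavelength opsin, stood at -0.02 and 0.40 in control and -0.21 and -0.77 at day 3. *Arr3*, cone arrestin, stood at 0.13 and 0.36 in control and -0.12 and -0.59 at day 3. *Opn1mw*, the middle-wavelength opsin, stood at -0.12 and 0.02 in control and 0.18 and -0.58 at day 3, with the day 3 arrays on opposite sides of control. *Pde6c*, the cone phosphodiesterase, lay above by a margin near 0. No test of rods against cones was made.

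The ribbon synapse, the release site of photoreceptors and bipolar cells, had 14 of 26 genes below control and 0 above, with a median difference of -0.44. The list stood at 0.06 and 0.17 in control and at -0.10 and -0.32 at day 3, and without replicate 2 the median difference was -0.16. *Slc17a7*, the vesicular glutamate transporter of photoreceptors, stood at 0.27 and 0.17 in control and -0.38 and -0.68 at day 3. *Sv2b*, a synaptic vesicle protein, stood at 0.08 and 0.30 in control and -0.44 and -0.48 at day 3. *Egflam*, which encodes pikachurin, the link between photoreceptor and bipolar cell, stood at 0.06 and 0.20 in control and -0.92 and -0.45 at day 3. All 3 had both day 3 arrays under -0.3, and the difference of *Slc17a7* was -0.75 ± 0.35 (SE). *Rims2*, a scaffold of the active zone, stood at 0.19 and 0.20 in control and -0.36 and -0.16 at day 3. *Rabgef1*, a regulator of endocytosis, stood at 0.13 and 0.16 in control and -0.40 and -0.46 at day 3. At an unadjusted p under 0.05, 8 were lower and 0 higher.

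Inner retinal neurons gave a mixed picture. Of 17 bipolar cell genes, 5 lay below and 0 above, with a median difference of -0.34 that was -0.11 without day 3 replicate 2, -0.13 without replicate 1 and -0.18 without control replicate 2. The widest gap was that of *Prkca*, the marker of rod bipolar cells, at 0.21 and 0.24 in control and -0.61 and -0.44 at day 3. *Grik1*, a kainate receptor subunit of OFF bipolar cells, stood at 0.42 and 0.57 in control and -0.20 and -0.22 at day 3. *Otx2*, a homeobox factor of photoreceptors and bipolar cells, stood at 0.13 and 0.27 in control and -0.37 and -0.48 at day 3. In ganglion cells 5 of 17 lay above, near the share of all genes, and 0 below (median difference 0.23). *Gap43*, a growth cone protein, stood at -0.12 and -0.02 in control and 0.72 and 0.47 at day 3. *Sncg*, gamma-synuclein, stood at -0.09 and -0.09 in control and 0.79 and 0.26 at day 3. *Rbpms*, the general marker of ganglion cells, stood at -0.12 and 0.04 in control and 0.38 and 0.16 at day 3. Amacrine and horizontal cell genes lay 6 above and 3 below of 19 (31.6% and 15.8%), near the shares of all genes (28.2% and 16.1%). *Vip*, a neuropeptide, stood at 0.12 and -0.12 in control and 0.79 and 0.72 at day 3. *Sst*, somatostatin, stood at -0.57 and 0.13 in control and 0.36 and 0.85 at day 3. *Prox1*, a homeobox factor of horizontal and AII amacrine cells, lay below and stood at 0.28 and 0.35 in control and -0.15 and -0.41 at day 3. The difference between these cell types was not tested.

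Müller glia had 10 of 20 genes below control and 0 above, with a median difference of -0.33, or -0.52 without day 3 replicate 2. Its genes for handling glutamate and retinoid were among them. *Rlbp1*, the retinaldehyde carrier, stood at 0.18 and 0.03 in control and -0.31 and -0.35 at day 3. *Glul*, glutamine synthetase, stood at 0.07 and 0.03 in control and -0.20 and -0.94 at day 3. *Slc1a3*, the glial glutamate transporter, stood at 0.01 and 0.10 in control and -0.23 and -0.21 at day 3. *Abca8a*, a lipid transporter, stood at 0.09 and 0.12 in control and -0.36 and -0.53 at day 3. *Hes1*, a Notch target that keeps the glial state, stood at 0.00 and 0.01 in control and -0.66 and -0.31 at day 3. *Gpr37*, a glial receptor, stood at 0.00 and 0.09 in control and -0.64 and -0.30 at day 3. *Gfap* lay on the other side of control from the genes of the resting Müller cell. The markers *Vim*, *Aqp4*, *Kcnj10* and *Sox9* overlapped with control.

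**Figure D3:**
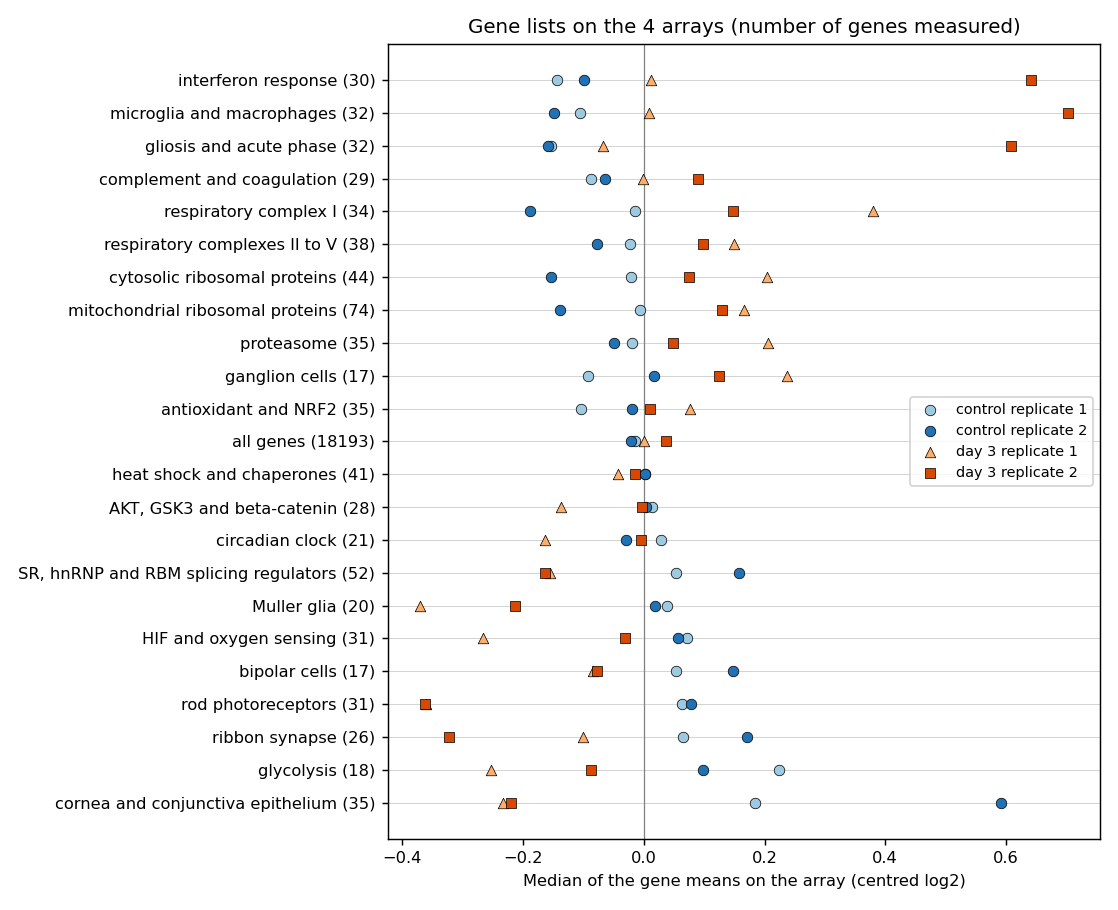
Median over the measured genes of 22 lists and of all genes on each of the 4 arrays (centred log2, number of genes in brackets). Rod genes lie at -0.36 and -0.36 on the day 3 arrays, and the interferon, microglia and gliosis lists lie far to the right on day 3 replicate 2, between 0.61 and 0.70.

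Glycolysis genes lay below control or overlapped with it. Of 18 measured, 11 lay below, and the median difference was -0.44. The list's median was 0.22 and 0.10 in control and -0.25 and -0.09 at day 3. Leaving out any 1 of the 4 arrays kept the median difference between -0.60 and -0.28. By the unadjusted p, under 0.05, 8 of the 18 were lower and 0 higher. *Hk1* and *Hk2* encode the hexokinases that trap glucose in the cell. *Hk1* stood at 0.04 and 0.39 in control and -0.90 and -0.86 at day 3, a difference of -1.10 ± 0.39 (SE). *Hk2*, the photoreceptor form, stood at 0.74 and 0.06 in control and -1.20 and -0.18 at day 3. Of the phosphofructokinases, which commit sugar to glycolysis, *Pfkp* stood at 0.34 and 0.78 in control and -0.25 and -0.88 at day 3. *Pfkl* stood at 0.72 and 0.15 in control and -0.33 and -0.08 at day 3, while *Pfkm* overlapped with control, at -0.19 and 0.26 in control and -0.11 and 0.13 at day 3. Further down the pathway, *Pgam1* stood at 0.53 and 0.19 in control and -0.68 and -0.22 at day 3. *Pkm*, pyruvate kinase, stood at 0.19 and 0.14 in control and -0.67 and -0.34 at day 3. *Ldha*, which makes lactate, stood at 0.47 and 0.14 in control and -0.15 and -0.24 at day 3. *Ldhb*, the form that favours pyruvate, stood at -0.02 and -0.10 in control and -0.05 and 0.32 at day 3. *Slc2a1*, the glucose transporter of photoreceptors and endothelium, stood at 0.07 and -0.15 in control and -0.58 and -0.34 at day 3, and the neuronal transporter *Slc2a3* overlapped.

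Oxygen sensing and HIF target genes were more often below control than above it. Of 31 measured, 14 lay below and 2 above, with a median difference of -0.33, and 5 of the genes (*Hk2*, *Ldha*, *Aldoa*, *Pgk1* and *Slc2a1*) are also on the glycolysis list. *Hif1a*, the oxygen-labile subunit itself, stood at 0.02 and 0.25 in control and 0.11 and -0.50 at day 3. Its probe sets disagreed. One stood at -0.19 and 0.98 in control and 1.11 and -1.65 at day 3. Another stood at -0.01 and 0.07 in control and -0.40 and -0.23 at day 3, below control on both. Genes that HIF is known to drive were among those below. *Kdm3a*, a histone demethylase, stood at 0.73 and 0.40 in control and -0.15 and -0.27 at day 3, a difference of -0.77 ± 0.28 (SE). *Egln3*, an oxygen-sensing prolyl hydroxylase, stood at 0.28 and 0.47 in control and -0.34 and -0.10 at day 3. *Pdk1*, which holds pyruvate out of the mitochondrion, stood at 0.26 and 0.16 in control and -0.30 and -0.09 at day 3. *Vegfa*, the vascular growth factor, stood at 0.01 and 0.46 in control and -0.50 and -0.34 at day 3. *Ndrg1*, a hypoxia-induced gene, stood at 0.00 and 0.30 in control and -0.45 and -0.46 at day 3. Above control were 2 members. *Egln2*, another of the hydroxylases, stood at 0.01 and -0.01 in control and 0.16 and 0.42 at day 3. *Hif3a*, a HIF relative, stood at -0.05 and -0.06 in control and 0.05 and 0.12 at day 3. *Adm*, *Bnip3*, *Car9* and *Ankrd37*, also targets, overlapped with control. With an unadjusted p under 0.05, 8 were lower and 0 higher.

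The core letters of the hypoxia response element (ACGTG, both strands) were present in the promoter windows of 10 of the 13 HIF list genes below control with an entry, or 76.9%, and in 9 of 11 glycolysis genes below control, or 81.8%. Over all genes with an entry the share was 21.8%, and over those measured here 26.1%. Among the other members with an entry, 9 of 16 on the HIF list and 3 of 6 on the glycolysis list held them. Promoters of HIF targets are known for these letters, and the HIF list holds many such targets.

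**Figure D4:**
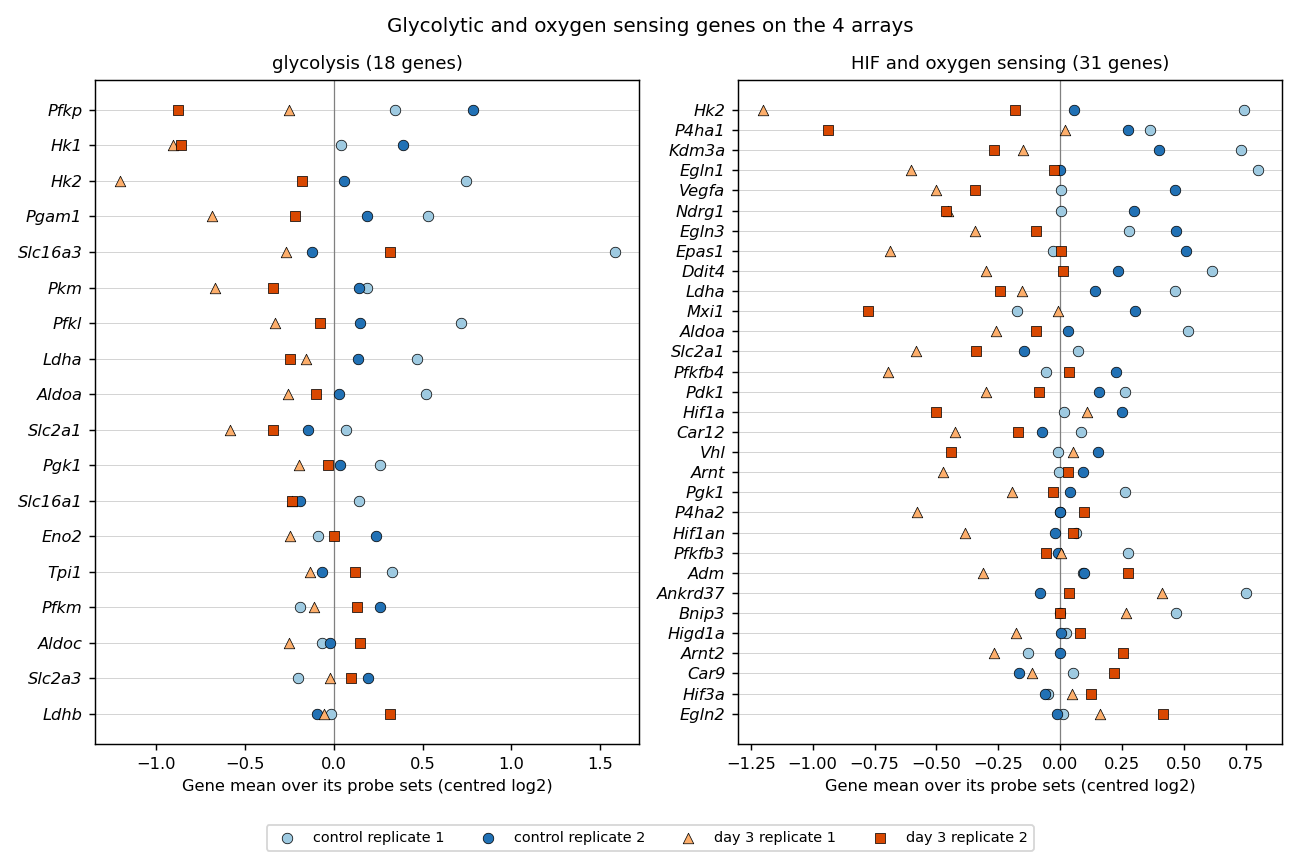
Gene means (centred log2) of the glycolysis list (left) and of the HIF and oxygen sensing list (right) on the 4 arrays, ordered by day 3 minus control. *Pfkp* and *Hk1* at the top left have both day 3 arrays clear of control, whereas *Egln2*, at the bottom right, has both above it.

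Genes of the respiratory chain lay above control or overlapped with it, with 2 exceptions. Of 34 genes of complex I, which passes electrons from NADH, 23 lay above control and 0 below, with a median difference of 0.41. The list stood at -0.01 and -0.19 in control and at 0.38 and 0.15 at day 3. Without replicate 2 the median difference was 0.47 and without replicate 1 it was 0.27. At an unadjusted p under 0.05, 13 were higher and 0 lower. The subunit *Ndufa2* stood at 0.02 and -0.42 in control and 0.37 and 0.44 at day 3, a difference of 0.60 ± 0.27 (SE). *Ndufa5* stood at 0.00 and -0.32 in control and 0.67 and 0.35 at day 3. *Ndufa1* stood at -0.03 and -0.22 in control and 0.63 and 0.27 at day 3. The large catalytic subunits *Ndufs1* and *Ndufv1* overlapped with control, at -0.03 and 0.06 in control and 0.66 and -0.23 at day 3 for *Ndufs1*. In complexes II to V, 21 of 38 lay above and 2 below, with a median difference of 0.29, or 0.17 without replicate 1. *Cox6b1* of cytochrome oxidase stood at -0.05 and -0.24 in control and 0.44 and 0.22 at day 3. *Atp5o* of ATP synthase stood at -0.06 and -0.39 in control and 0.67 and 0.17 at day 3. Of the 2 below, *Atp5b*, the catalytic beta subunit of ATP synthase, stood at 0.00 and 0.21 in control and -0.17 and -0.19 at day 3. *Sdha*, the flavoprotein of complex II, stood at 0.04 and 0.30 in control and -0.19 and -0.09 at day 3.

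Ribosomal protein genes, which like the complex I subunits make short transcripts, lay mostly above control or overlapped with it. Cytosolic ones were above in 28 of 44 and below in 1 (median difference 0.26, or 0.17 without control replicate 2), and mitochondrial ones above in 39 of 74 and below in 3 (0.25). *Rps6*, a target of growth signalling in the small subunit, stood at -0.12 and -0.31 in control and 0.28 and 0.60 at day 3. *Mrpl23* stood at -0.20 and -0.22 in control and 0.44 and 0.29 at day 3. The exception in the cytosol was *Rpl12*, at 0.12 and 0.10 in control and -0.32 and -0.46 at day 3. Proteasome genes lay above in 14 of 35 and below in 3. *Psmb1*, a subunit of the core particle, stood at -0.08 and -0.56 in control and 0.35 and 0.35 at day 3. *Psme4*, an activator cap, was below and stood at 0.05 and 0.18 in control and -0.15 and -0.24 at day 3.

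Splicing regulators lay below control or overlapped with it. Of 52 SR, hnRNP and RBM genes, whose proteins choose exons, 29 lay below control and 0 above, with a median difference of -0.28 and medians of 0.05 and 0.16 in control and -0.16 and -0.16 at day 3. *Srsf1*, an SR protein, stood at 0.03 and 0.25 in control and -0.50 and -0.54 at day 3, a difference of -0.66 ± 0.24 (SE). *Rbm39* stood at 0.32 and 0.50 in control and -0.17 and -0.56 at day 3. *Rbm5* stood at 0.14 and 0.24 in control and -0.18 and -0.58 at day 3. In the core spliceosome 11 of 38 lay above and 7 below, which is near the background. *Snrpe*, a small snRNP protein, lay above and stood at 0.00 and -0.66 in control and 0.88 and 0.44 at day 3. *Lsm7*, of the ring on U6 RNA, stood at -0.13 and -0.06 in control and 0.43 and 0.44 at day 3. *Prpf8*, the large scaffold of the catalytic centre, lay below and stood at -0.11 and 0.42 in control and -0.58 and -0.45 at day 3. The part of transcript length, annotation or RNA quality in these groups was not tested.

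**Figure D5:**
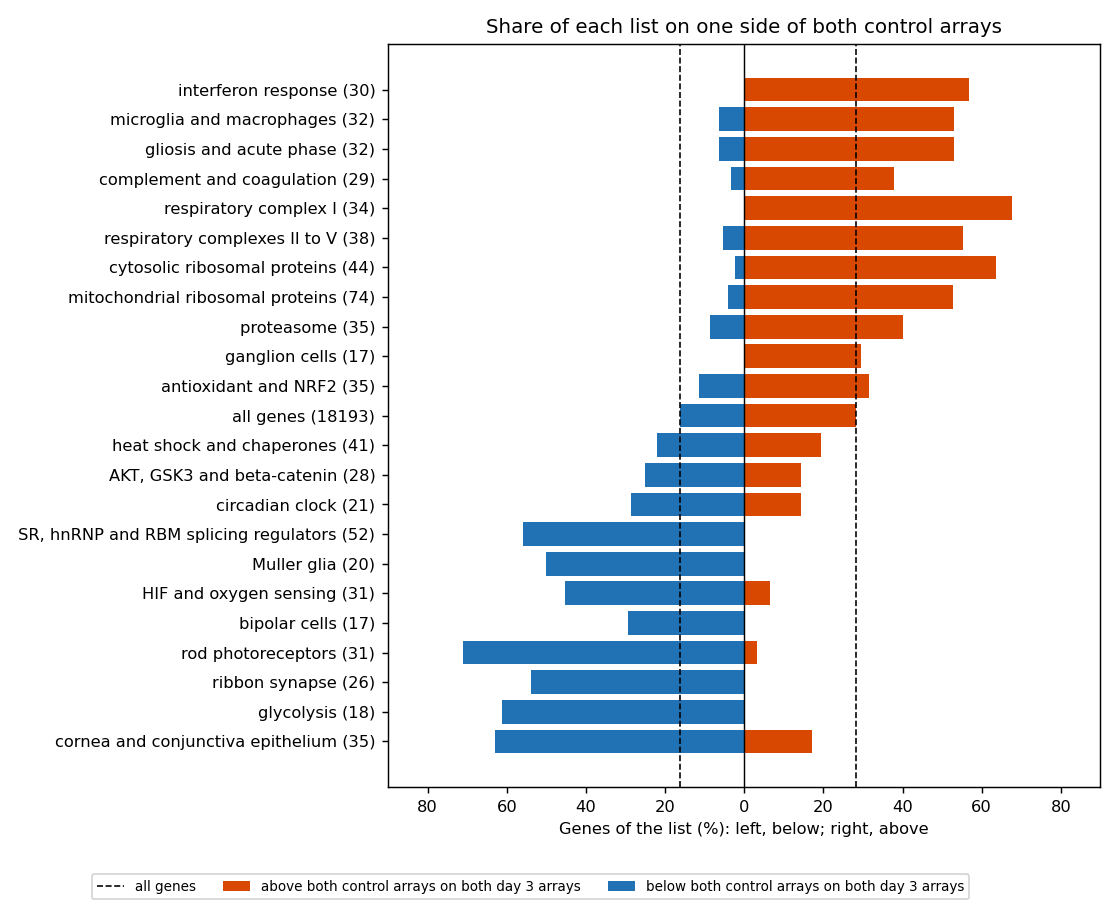
Share of the measured genes of each list that lay above (right) or below (left) both control arrays on both day 3 arrays, with dashed lines at the shares of all genes (28.2% above and 16.1% below). The rod list reaches 71.0% below and the complex I list 67.6% above.

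Defences against oxygen damage were divided. Of 35 antioxidant and NRF2 genes, 11 lay above and 4 below, close to the background. Those above included 3 peroxiredoxins, which reduce peroxide. *Prdx4* by its mean stood at 0.02 and -0.55 in control and 0.60 and 0.61 at day 3. *Prdx3*, of mitochondria, stood at -0.07 and -0.08 in control and 0.66 and 0.21 at day 3. *Prdx2* stood at -0.24 and -0.10 in control and 0.19 and 0.13 at day 3. *Gpx8*, a peroxidase of the endoplasmic reticulum, stood at -0.23 and -0.51 in control and 1.37 and 0.10 at day 3. *Msrb2*, which repairs oxidised methionine, stood at -0.45 and -0.17 in control and 0.10 and 0.61 at day 3. Below were *Keap1*, *Gsr*, *Gclc* and *Txnrd1*. *Keap1*, the sensor that restrains NRF2, stood at 0.12 and 0.33 in control and -0.07 and -0.11 at day 3. *Gsr*, glutathione reductase, stood at 0.06 and 0.07 in control and -0.29 and -0.13 at day 3. *Hmox1*, the classical induced target of NRF2, stood at -0.54 and -0.03 in control and -0.17 and 0.02 at day 3. Of the 4 probe sets of *Prdx4*, 3 lay above control and 1 below.

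Heat shock genes lay 8 above and 9 below of 41 (19.5% and 22.0%, against 28.2% and 16.1% of all genes). *Hspa1b*, an Hsp70 whose probes may also read its near copy, lay below and stood at 0.32 and 0.02 in control and -0.79 and -0.24 at day 3. *Hsph1*, its exchange factor, also below, stood at 0.26 and 0.22 in control and -0.17 and -0.27 at day 3. *Cct5*, part of the chaperonin that folds actin and tubulin, lay above and stood at -0.18 and -0.18 in control and 0.02 and 0.07 at day 3. *Cct2*, of the same complex, stood at -0.07 and -0.18 in control and 0.07 and 0.07 at day 3. The heat shock letters GAANNTTC were in 3 of the 8 promoters of members below with an entry, and in 10 of 26 of the other members, against 9.04% of all genes with an entry. The antioxidant letters TGACNNNGC were in 2 of 10 promoters of antioxidant genes above and in 4 of 18 of the others, against 14%, and the CRX letters were in 3 of 9 ribbon synapse genes below and 3 of 11 others.

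Genes of the unfolded protein response (5 above and 6 below of 28) and of DNA damage and p53 (7 above and 10 below of 37) had no common direction. *Atf5* and *Asns*, targets of the amino acid response, stood above, *Asns* at -0.36 and -0.16 in control and 0.50 and 0.85 at day 3. *Atf6*, a sensor of misfolding, stood below, at 0.15 and 0.20 in control and -0.22 and -0.13 at day 3. *Phlda3* and *Bbc3*, both targets of p53, stood above, *Phlda3* at -0.17 and -0.08 in control and 0.51 and 0.66 at day 3. *Bbc3*, which encodes the death protein PUMA, stood at -0.17 and -0.28 in control and 0.58 and 0.38 at day 3. *Ddb2* and *Mdm2*, also p53 targets, stood below, at 0.03 and 0.20 in control and -0.47 and -0.21 at day 3 for *Ddb2*.

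Cell death genes likewise lay on both sides, with 12 of 32 genes that promote apoptosis above and 6 below, and 4 of 24 inhibitors above and 6 below. *Siva1*, which encodes a death domain protein, had all 4 probe sets above control, with differences from 0.80 to 1.11, and its mean stood at -0.06 and -0.47 in control and 0.84 and 0.55 at day 3. *Endog*, a mitochondrial nuclease, stood at 0.02 and -0.50 in control and 0.41 and 0.61 at day 3. *Casp1*, the inflammatory caspase, stood at -0.14 and -0.31 in control and 0.14 and 0.14 at day 3. *Casp2* and *Apaf1*, which act in the intrinsic pathway, stood below, *Apaf1* at -0.13 and -0.02 in control and -0.41 and -0.26 at day 3. Among inhibitors, *Bcl2* and *Igf1r* lay below. *Bcl2* stood at 0.16 and 0.22 in control and -0.29 and -0.09 at day 3. *Igf1r*, the insulin-like growth factor receptor, stood at 0.30 and 0.12 in control and -0.56 and -0.05 at day 3. *Birc2*, an inhibitor of apoptosis, stood above, at -0.09 and -0.31 in control and 0.34 and 0.17 at day 3.

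AKT, GSK3 and beta-catenin genes lay 4 above and 7 below of 28, and several genes the study discusses had day 3 arrays that disagreed. *Akt1*, a survival kinase, stood at -0.06 and 0.43 in control and 0.77 and -2.22 at day 3 on its widest probe set. A second of its sets stood at -0.03 and 0.04 in control and -0.35 and 0.10 at day 3. *Tollip*, an inhibitor of Toll-like signalling, has 2 sets, of which one stood at -0.11 and 1.004 in control and 0.11 and -1.43 at day 3. The other stood at 0.01 and -0.02 in control and -1.05 and 0.28 at day 3. *Oxr1*, an oxidation resistance gene, stood at -0.35 and 0.53 in control and 1.30 and -1.28 at day 3 on its widest set. On the sets named first for *Akt1*, *Tollip* and *Oxr1* the array labelled day 3 replicate 1 was the higher by 1 or more, and on the other *Tollip* set the lower. The mean of the *Tollip* sets lay below control, at -0.05 and 0.49 in control and -0.47 and -0.57 at day 3, although each of its sets overlapped with control. Over all probe sets, 43 had the array labelled day 3 replicate 1 above and replicate 2 below both control arrays by 1 or more on each side, and 0 had the reverse.

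Other genes that the study followed over time also differed between the arrays. *Edn2*, the endothelin made by stressed photoreceptors, stood at -0.63 and -0.06 in control and -0.34 and 3.51 at day 3. *Gadd45b*, a stress gene, stood at -0.26 and -0.20 in control and -0.15 and 1.03 at day 3. *Lin7b*, a synaptic scaffold, stood at -0.09 and -0.29 in control and 0.03 and 1.44 at day 3. In all 3 the array labelled day 3 replicate 2 was high and replicate 1 near control. On the arrays labelled day 14 replicates 1 and 2 *Edn2* stood at 0.01 and 3.12. The paper describes these 3 genes as raised late in the exposure, and the label of day 3 replicate 2 is in doubt. *Gja1*, which encodes the gap junction protein connexin 43, had control arrays far apart, at -1.51 and 1.11 on one of its probe sets, with the day 3 arrays at 0.82 and -1.53. *Vwf*, which encodes von Willebrand factor, stood at 0.25 and -0.53 in control and -1.08 and 0.84 at day 3. *Thbs1*, thrombospondin, stood at 0.02 and -0.02 in control and 0.17 and -0.16 at day 3. *Dmd*, dystrophin, stood at 0.10 and 0.24 in control and 0.24 and -1.13 at day 3. These last 4 genes overlapped with control.

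Clock genes lay 6 below and 3 above of 21, with a median difference of -0.25, or -0.07 without replicate 1. *Per3*, a repressor of the clock, stood at 0.22 and 0.26 in control and -0.33 and -0.12 at day 3. *Rora*, a nuclear receptor of the clock, stood at 0.21 and 0.30 in control and -0.26 and -0.44 at day 3. *Arntl* (BMAL1), its activator, stood at 0.16 and 0.22 in control and -0.08 and -0.25 at day 3. *Npas2*, a partner of BMAL1, lay above and stood at -0.15 and -0.09 in control and 0.20 and 0.23 at day 3. The time of day of sampling was not given in the sources used here. Immediate early genes lay 8 above and 3 below of 30. *Junb*, an AP-1 subunit, lay above and stood at -0.19 and -0.44 in control and 0.19 and 1.17 at day 3. *Klf4*, a zinc finger factor, lay below and stood at 0.17 and 0.26 in control and -0.97 and -0.10 at day 3. Endothelial and pericyte genes lay 5 above and 6 below of 28, with *Flt1*, a VEGF receptor, at 0.21 and 0.16 in control and -0.54 and -0.21 at day 3. Of 54 retinal disease genes, 14 of them shared with the rod list, 20 lay below and 4 above, the last including *Ndp*, which encodes the vascular ligand norrin, at -0.36 and -0.21 in control and 0.80 and 0.57 at day 3. Photoreceptor cilium genes lay 13 below and 3 above of 43, led by *Ift122* at 0.23 and 0.10 in control and -1.14 and -0.28 at day 3.

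Among these smaller groups the pigment epithelium had 0 above and 3 below of 19, with a median difference of -0.45 that was 0.066 without control replicate 2 and -0.12 without day 3 replicate 2. The 3 were *Lrat*, *Rdh5* and *Ttr* and the arrays overlapped for *Rpe65* and *Best1*. Cell cycle genes lay 10 above and 1 below of 27, *Cdk4* at -0.14 and -0.09 in control and 0.16 and 0.29 at day 3. *Eif2s3y*, a gene of the Y chromosome, stood at 0.02 and -0.34 in control and 0.91 and 0.59 at day 3. *Xist*, the RNA of the inactive X chromosome, stood at 0.35 and 0.09 in control and -0.04 and -0.18 at day 3, and the methods describe pools of both sexes. Muscle genes lay 4 above and 1 below of 17, collagen and fibroblast genes 1 and 6 of 25, blood genes 2 and 0 of 8, citric acid cycle genes 6 and 4 of 22, cholesterol synthesis 6 and 3 of 20, transmitter receptors 5 and 3 of 26, potassium channels 5 and 5 of 34, glucocorticoid targets 2 and 6 of 18, and iron and metal genes 5 and 3 of 18. The shares of all genes were 28.2% above and 16.1% below.

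The 10 probe sets with the smallest limma p were all lower at day 3. Named genes among them were *Plet1*, *Jmjd1c*, *Plac8*, *Wdr26*, *Asprv1* and *Ebpl*, and 4 named no gene. *Jmjd1c*, of the family of histone demethylases, stood at 0.46 and 0.28 in control and -0.84 and -1.01 at day 3, a difference of -1.30 ± 0.15 (SE). *Plac8* stood at 0.97 and 0.79 in control and -0.50 and -0.52 at day 3. Their adjusted p in limma was 0.471 each, so none of the 10 is called.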

How the data were processed

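Retinal RNA of 8 arrays in 4 groups of 2 was measured, and the groups were taken from the labels. The authors summarised the probes by RMA and deposited log2 values. In the deposited table every probe set's median over the 8 arrays was 0 within 1e-06, so the values were centred by a step not given in the sources used here, no signal level or background call could be had, and none was filtered. Their number, 2 a group, limits the precision.

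Of 45101 rows, 64 control probe sets were left out, and 34945 of the other 45037 named 1 gene, 932 several and 9160 none in the platform's annotation. Genes (18193) are means of their probe sets. limma 3.58.1 in R 4.3.3 was fitted to the 4 group means with Benjamini-Hochberg adjustment, and Python 3.11.15 (numpy 2.4.6, pandas 2.3.3) did the rest. The fit was tested on simulated data. Promoter sequences are RefSeq's (GRCm38.p6).

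The members and the 48 gene lists (1439 genes, 1299 measured) were chosen with earlier results of these data known, so no list is independent evidence. Named are the 15 genes with the largest gap in each direction, the 10 probe sets with the smallest p, the genes of each list with the largest gaps on its own side and against it, its defining members, and genes the study discusses. Other genes of lists were named to fill out a pathway after their values were seen. Alternatives changed the scaling, the summary per gene, the test, the pairing and the arrays. Some genes are not reported here.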

Additional observations from a re-analysis of the deposited data

Results flagged for a closer look

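Control probe sets that enter no comparison of the retina set the day 3 arrays apart from the control arrays. The poly-A controls, added to the RNA before labelling, had a level of 2.38 on day 3 replicate 1, against 0.74 and -0.52 on the control arrays. On the array labelled day 3 replicate 2 the 3' probe sets of the poly-A controls exceeded the 5' sets by 0.99, against -0.62 and -0.33 on the control arrays. On the same array the *Gapdh* control sets had a 3' to 5' difference of 1.19, against 0.06 and -0.19. The 18S ribosomal RNA sets stood at 1.94 there, against -0.14 and -1.08 in control and -1.87 on the other day 3 array. The array labelled day 14 replicate 2 had like values, 1.31 for the poly-A difference, 1.43 for *Gapdh* and 1.83 for 18S. The 18S level varied widely at day 7 too, with 1.35 and -2.56 on the arrays labelled replicates 1 and 2. The paper's quality measurements place the raised *Gapdh* ratio, headed 5' to 3' there and read here as 3' to 5', on the arrays of the longest exposure alone. The label of the day 3 array could therefore not be settled. All are centred log2 values, and their part in the results was not tested.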

How the results depend on the processing

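No probe set passed an adjusted p of 0.05 in limma under any setting run (0 of 45037). Counts by gene, here and in the next paragraph, are of 18193 genes and not of probe sets. The number at an unadjusted p under 0.05, 4649 as reported, was 2000 by gene, 2997 by a one-way analysis of variance, run without the fold filter and error model of the methods, and 1705 to 7900 with 1 of the 4 arrays left out (0 adjusted in each, 7900 without day 3 replicate 2). With the replicate block it was 4435 (0 adjusted). In settings chosen after seeing the data it was 3002 with the replicate block in a fit of the 4 arrays alone, 3978 with the crossed pairing, and 7976 without the arrays labelled day 3 and day 14 replicate 2. Control and day 3 arrays with the same number deviated with a correlation of -0.22, and the other pairs of groups had correlations from -0.40 to 0.55. Whether a number marks 1 of the study's repeat experiments was not given in the sources used here, so no pairing was used.

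Counts of separated probe sets depend on how many arrays must be cleared. With 1 array left out, 15979 to 20454 lay above control, 12357 to 16778 below, 18 to 742 above and 123 to 766 below by 1 or more, and the means were 1 or more higher in 135 to 1149 and lower in 366 to 1234, with the highest number above by 1 or more without day 3 replicate 2. By gene the counts were 5129 above, 2938 below, 5 above and 19 below by 1 or more, and 82 higher and 76 lower by the means. After quantile normalization 14 were above by 1 or more, and with means on the linear scale 327 were higher. Leaving out the genes on the cornea and lens lists, a setting chosen after seeing the data, left 11113 above and 7981 below. Of the 20 lists with a median difference of 0.2 or more in size, 18 kept its sign under every setting, while without control replicate 2 the lens list went from -0.65 to 0.23 and the pigment epithelium list from -0.45 to 0.066. With 1 array left out, the lens list ranged from -1.69 to 0.23 and the pigment epithelium list from -0.57 to 0.066. The causes were not tested. With 2 arrays a group, differences of the size of the lists' medians could not be called gene by gene.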

Other observations

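On some probe sets the day 3 arrays lay on opposite sides of both control arrays, beside 24.7% with both above and 17.8% with both below. The array labelled day 3 replicate 2 was above and replicate 1 below in 5608 of 45037 (12.5%), and the reverse held for 3936 (8.74%).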
